A study of Homo sapiens with 2 samples.

Results

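The genes described here are the insulin-like growth factor (IGF) system of U87 cells: the ligand IGF2, the receptors IGF1R, INSR and IGF2R, and the binding proteins IGFBP2 to IGFBP7. They were chosen by name, as 10 of the 41582 genes to which the deposited transcripts could be matched, and all 10 were found. U87 is an established human glioblastoma cell line, given as genotype WT and grown in RPMI medium with fetal bovine serum. Its mRNA was sequenced after 72 h with the vehicle DMSO (1 library) or with CCA-1.1, a curcumin analog dissolved with DMSO (1 library). The concentration of CCA-1.1 used for sequencing is not given in the sources used here. The comparison asks which genes differ after treatment. The study also listed IGF1R among the predicted targets of CCA-1.1. There was thus no replicate against which to check any value below, and none is tested.

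IGF1 and IGF2 are secreted ligands that signal through IGF1R, a receptor tyrosine kinase, and IGF2 also signals through the short form of the closely related insulin receptor, INSR. IGF2R, the cation-independent mannose 6-phosphate receptor, has no kinase; it carries lysosomal enzymes to the lysosome and removes IGF2 from the cell surface. The IGF binding proteins are secreted, hold IGFs outside the cell and release them when proteases cut the binding protein, and several also act without IGF.

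Levels are given in TPM, the share of each transcript in its library, which the authors calculated with Kallisto. TPM is corrected for transcript length, so levels can be compared between genes, but it keeps no read depth, and no counting error can be given. Gene levels are sums over the transcripts of a gene. A difference is the log2 of the ratio of (TPM + 1), CCA-1.1 over DMSO, which makes differences of low genes look smaller than they are. A difference beyond 1 in either direction was taken as 2-fold, and one beyond 0.32 in either direction was used to describe smaller differences.

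Markers of a mesenchymal glioblastoma line were partly present. VIM was at 3217 TPM with DMSO and 3106 TPM with CCA-1.1, and FN1 was at 11241 TPM and 9088 TPM. Of the 5 markers of this list averaging at least 10 TPM, 2 were below -0.32: CD44 (607.4 TPM and 472.6 TPM, a difference of -0.36) and TGFBI (1802 TPM and 1411 TPM, -0.35). Of the 7906 protein-coding genes with that mean, 3.62% were below -0.32. CHI3L1 was at 4947 TPM and 4397 TPM, a difference of -0.17. OLIG2, at 5.64 TPM and 7.03 TPM, differed by 0.27, and NES, at 7.53 TPM and 7.62 TPM, by 0.015. SOX2 went the other way, at 1.87 TPM and 1.45 TPM, a difference of -0.23. The astrocyte markers GFAP (0.41 TPM and 0.57 TPM) and S100B (listed at 0 in both libraries) were absent or nearly so. The 10 markers of this list summed to 21828.5 TPM with DMSO and 18491.5 TPM with CCA-1.1, mostly from FN1 and CHI3L1. The 10 markers of other cell types summed to 523.3 TPM and 421.5 TPM, mostly CD68, at 494.2 TPM and 397.1 TPM. CD68 and PTPRC were both listed for blood cells and microglia, and their levels disagreed. PTPRC and EPCAM, which define blood and epithelial cells, stayed below 0.2 TPM in both libraries, as did VWF, CDH1 and MOG. The neuronal gene SNAP25 was at 22.0 TPM and 16.8 TPM, a difference of -0.37. The endothelial marker PECAM1 was at 3.41 TPM and 2.71 TPM, the neuronal marker RBFOX3 at 1.83 TPM and 2.45 TPM, and the myelin gene MBP at 1.22 TPM and 1.95 TPM. The part of these lower sums in the differences below was not tested.

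The binding proteins were the abundant side of the system, and the ligands were nearly undetected. IGFBP6, IGFBP7, IGFBP3, IGFBP4 and IGF2R each exceeded 100 TPM in both libraries, whereas IGF1R, INSR and IGFBP5 were between 0.89 and 5.75 TPM, and IGF2 and IGFBP2 stayed below 0.1 TPM. No member passed 2-fold, against 1.53% of all genes. Of the 5 members averaging 10 TPM or more, IGFBP3 was above 0.32 and IGFBP4 was below -0.32. Of the 7906 protein-coding genes averaging 10 TPM or more, 4.33% were above and 3.62% were below these limits. Over the 1499 protein-coding genes averaging 100 TPM or more, a range that includes all 5 and was chosen after the values were seen, the shares were 5.14% and 4.34%. In bulk libraries such as these, fewer cells with a transcript and less of it per cell cannot be told apart. The median difference was -0.18 for the 5 members and 0.0039 for the 7906 genes.

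**Figure D1:**
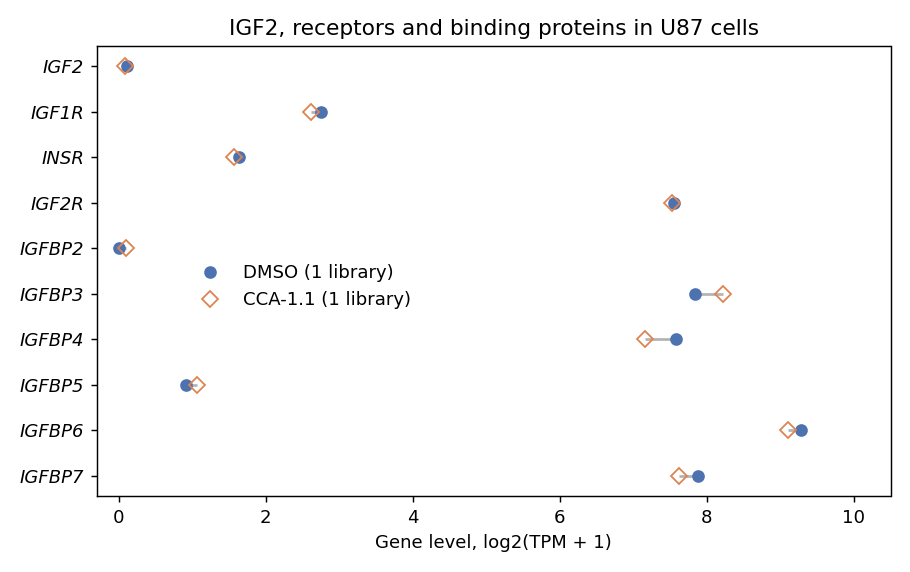
Level of each of the 10 genes on the log2(TPM + 1) scale (x axis) in the DMSO library (filled circles) and the CCA-1.1 library (open diamonds), 1 library each, so without error bars. IGFBP6 is the highest gene in both libraries, IGF2 and IGFBP2 lie near 0, and the widest gaps are those of IGFBP4 and IGFBP3, in opposite directions.

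IGF2 (Entrez identifier 3481, chromosome 11, 2129117 to 2149566 on GRCh38.p14) was at 0.08 TPM with DMSO and 0.06 TPM with CCA-1.1. All of it was assigned to 1 of its 5 transcripts, NM_001291862.3. The readthrough gene INS-IGF2, which shares IGF2 exons, was listed at 0 in both libraries, as was INS. IGF1 was at 0.04 TPM and 0.02 TPM. The U87 libraries therefore held almost no transcript of any ligand of the system.

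IGF1R (Entrez identifier 3480, chromosome 15, 98648539 to 98964530) was at 5.75 TPM with DMSO and 5.16 TPM with CCA-1.1, a difference of -0.13. The model transcript XM_047432445.1 held 63.5% of this level with DMSO and 70.9% with CCA-1.1, at 3.65 TPM and 3.66 TPM. The curated transcripts were lower: NM_001291858.2 was at 1.07 TPM and 0.63 TPM, and NM_000875.5, named after its values were seen, was at 0.45 TPM and 0.05 TPM. XM_047432444.1 was at 0.38 TPM and 0.72 TPM. Most of the IGF1R level was thus assigned to a model transcript that hardly differed between the libraries. Kallisto divides shared reads among the 9 transcripts by estimation, so this division is uncertain. Over curated transcripts alone, the difference was -0.58.

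INSR (Entrez identifier 3643, chromosome 19, 7112265 to 7294414) was at 2.1 TPM with DMSO and 1.96 TPM with CCA-1.1, a difference of -0.07. Its direction turned with the transcripts counted: the difference was 0.020 over curated transcripts and -0.74 with the highest transcript alone. Alternative splicing of 1 exon gives a short form, which binds IGF2 as well as insulin, and a long form, which prefers insulin. The short form (NM_001079817.3) was at 1.92 TPM with DMSO and 0.75 TPM with CCA-1.1, which is 91.4% and 38.3% of the gene. The long form (NM_000208.4) was listed at 0 with DMSO and was at 1.21 TPM with CCA-1.1, or 61.7% of the gene, a difference of 1.14. This was the only 1 of the 32 transcripts of the 10 genes past 2-fold, against 2.23% of all transcripts. Both forms share nearly all of their sequence, and Kallisto divides shared reads between them by estimation. The number of reads over the spliced exon is not known from TPM, so whether the forms exchanged places in the cells or in the estimate cannot be told apart.

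IGF2R (Entrez identifier 3482, chromosome 6, 159969082 to 160111504) was the most abundant receptor, with 186.2 TPM with DMSO and 183.6 TPM with CCA-1.1, a difference of -0.02. Its level was 32.4 times that of IGF1R with DMSO and 35.6 times with CCA-1.1, and IGF1R was 2.74 and 2.63 times INSR. The order of the receptors was therefore the same in both libraries. The 250 bases before the annotated start of IGF2R are shown because they hold 3 copies of the E-box CACGTG, the core of the element bound by TFEB and related factors of lysosomal genes. The copies begin 132, 74 and 28 bases before the start and are in capitals. Of 35116 such windows, 6.34% held the E-box at least once and 0.0797%, or 28 windows, at least 3 times. The E-box was among several motifs searched in the 10 windows of the members. The IGF2R window was picked because it holds these copies, so the share is no test. A match is no evidence of use. The window lies at chr6:159968832-159969081 on the plus strand of GRCh38.p14 (RefSeq).
IGF2R: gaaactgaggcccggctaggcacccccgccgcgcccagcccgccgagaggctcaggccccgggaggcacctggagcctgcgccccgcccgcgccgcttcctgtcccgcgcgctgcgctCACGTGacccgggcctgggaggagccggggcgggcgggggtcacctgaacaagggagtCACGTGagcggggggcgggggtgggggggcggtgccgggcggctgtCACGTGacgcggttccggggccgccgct

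IGFBP6 (Entrez identifier 3489, chromosome 12, 53097667 to 53102340), which prefers IGF2 over IGF1, was the most abundant member, with 622.9 TPM with DMSO and 549.5 TPM with CCA-1.1. It ranked 194 of the 41582 genes with DMSO and 219 with CCA-1.1. Its difference was -0.18, and 12.6% of the 7906 protein-coding genes had a lower one. Its main transcript NM_002178.3 held over 99% of the level in both libraries, so the gene value hardly depended on how reads were divided.

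IGFBP7 (Entrez identifier 3490, chromosome 4, 57030773 to 57110385), a secreted relative that binds IGFs weakly and is known from tumor blood vessels, was at 234.8 TPM with DMSO and 196.6 TPM with CCA-1.1. The difference was -0.26, and 6.55% of the 7906 genes had a lower one. NM_001553.3 made up 99.7% and 98.8% of it. The minor transcript NM_001253835.2 was at 0.79 TPM and 2.32 TPM, opposite in direction to the gene.

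IGFBP3 (Entrez identifier 3486, chromosome 7, 45912245 to 45921272) is the main carrier of IGFs in blood. It was at 229.1 TPM with DMSO and 296.7 TPM with CCA-1.1, 1.3 times as high. The difference was 0.37, and 2.72% of the 7906 genes had a higher one. Its main transcript NM_000598.5 (225.8 TPM and 294.4 TPM) carried the difference, while NM_001013398.2 made up 1.34% and 0.421% of the gene and XM_047420325.1 0.0786% and 0.367%. IGFBP3 was the single member above 10 TPM that was higher in the CCA-1.1 library.

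IGFBP4 (Entrez identifier 3487, chromosome 17, 40443450 to 40457725), a binding protein that mostly holds back IGF action until PAPPA cuts it, was at 191.4 TPM with DMSO and 141.6 TPM with CCA-1.1. It has 1 transcript in the table, NM_001552.3. The difference was -0.43, and 1.58% of the 7906 genes had a lower one. The ratio of IGFBP3 to IGFBP4 was 1.2 with DMSO and 2.1 with CCA-1.1.

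The promoters of IGFBP3 and IGFBP4 are shown because these members differed most and in opposite directions. Both hold a TATA-like motif close to the annotated start, in capitals: TATATA, beginning 30 bases before the start of IGFBP3, and TATAAA, beginning 29 bases before that of IGFBP4. Of the 10 windows of the 8 members found in the promoter table, these were the 2 with either motif. TATAAA was in 10.7% and TATATA in 3.73% of all 35116 windows, searched on both strands over the 250 bases before the start. The motifs were chosen after the values were seen, and a match is no evidence of use. The IGFBP3 window lies at chr7:45921273-45921522 on the minus strand and the IGFBP4 window at chr17:40443200-40443449 on the plus strand of GRCh38.p14 (RefSeq). IGF2 and IGFBP7 had no window in the table.
IGFBP3: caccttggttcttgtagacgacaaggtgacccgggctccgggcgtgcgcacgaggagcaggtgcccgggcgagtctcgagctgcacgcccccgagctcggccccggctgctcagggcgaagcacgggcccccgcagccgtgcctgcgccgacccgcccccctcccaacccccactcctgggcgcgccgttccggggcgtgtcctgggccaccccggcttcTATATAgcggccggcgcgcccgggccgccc
IGFBP4: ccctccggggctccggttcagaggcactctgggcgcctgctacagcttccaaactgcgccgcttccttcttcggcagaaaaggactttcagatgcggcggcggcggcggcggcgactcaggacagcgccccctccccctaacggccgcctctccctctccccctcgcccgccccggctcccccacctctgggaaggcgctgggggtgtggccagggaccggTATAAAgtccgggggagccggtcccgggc

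The motif GGGCGG, the GC box bound by SP1, was searched on both strands with overlapping copies counted, and 42.6% of all windows held it. IGF2R held 6 copies, INSR 4 and IGF1R 2 in these 250 bases. All 3 receptor windows thus held the GC box and neither TATA motif. Neither trait was particular to the receptors. Windows of IGFBP2, IGFBP3, IGFBP4 and IGFBP6 held the GC box too, with 2 copies for IGFBP3. The windows of IGFBP2, IGFBP5 and IGFBP6 also had neither TATA motif.

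IGFBP5 (Entrez identifier 3488, chromosome 2, 216672105 to 216695549), which attaches to the extracellular matrix, was at 0.89 TPM with DMSO and 1.1 TPM with CCA-1.1, a difference of 0.15. IGFBP2 (Entrez identifier 3485, chromosome 2, 216632828 to 216664436), which is often high in glioblastoma tissue, was listed at 0 with DMSO and was at 0.07 TPM with CCA-1.1. These genes are neighbors, with 7668 bases between them, and both were low in U87 cells. IGFBP1, which is not among the 10 genes, lies 18584 bases from IGFBP3 and was at 32.3 TPM and 37.6 TPM, a difference of 0.21. Both genes of each pair were listed higher in the CCA-1.1 library, though IGFBP1 stayed within the limits used for smaller differences. IGFBP2 and IGFBP5 were so low that, without read counts, their direction is uncertain. Of the 12041 protein-coding genes averaging at least 1 TPM, as IGFBP1 and IGFBP3 do, 53.8% were higher too. A shared direction within a pair therefore carries little weight.

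The make-up of the binding protein transcripts differed more than their sum. Summed over IGFBP1 to IGFBP7, the level was 1311 TPM with DMSO and 1223 TPM with CCA-1.1, a difference of -0.10. IGFBP6 held 47.5% of the sum with DMSO and 44.9% with CCA-1.1. IGFBP3 held 17.5% and 24.3%, IGFBP4 14.6% and 11.6%, and IGFBP7 17.9% and 16.1%. By share, IGFBP7 ranked above IGFBP3 with DMSO and below it with CCA-1.1. IGFBP4, IGFBP6 and IGFBP7 together were lower by 161.4 TPM, while IGFBP3 was higher by 67.7 TPM.

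**Figure D2:**
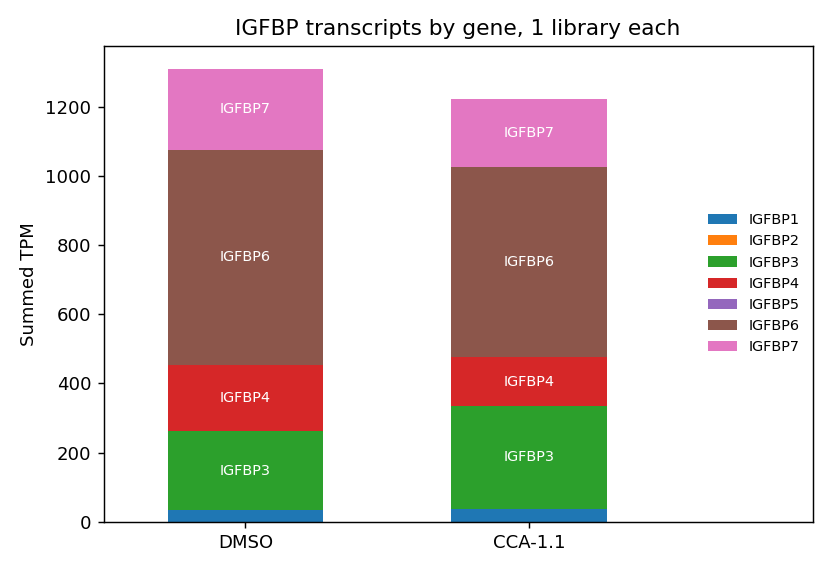
Summed TPM of IGFBP1 to IGFBP7 (y axis) in the DMSO and CCA-1.1 libraries, 1 library each, stacked by gene. The whole bar is 1311 TPM with DMSO and 1223 TPM with CCA-1.1, with a larger IGFBP3 block and smaller IGFBP4, IGFBP6 and IGFBP7 blocks with CCA-1.1, and IGFBP2 and IGFBP5 too thin to see.

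The list of binding protein proteases, protease inhibitors and secreted relatives was mostly lower in the CCA-1.1 library. Its proteases were mixed in direction. Of the 19 genes of this list, 10 had a mean of at least 10 TPM. Of these, 5 were below -0.32, against 3.62% of the 7906 genes, and 1 was above 0.32, against 4.33%. The median difference of the 13 genes averaging at least 1 TPM was -0.29, against 0.017 for the 12041 protein-coding genes with that mean. PAPPA, the protease that cuts IGFBP4, was at 62.8 TPM with DMSO and 42.8 TPM with CCA-1.1, a difference of -0.54. Its inhibitors STC1 (84.4 TPM and 61.8 TPM) and STC2 (78.1 TPM and 60.0 TPM) differed by -0.44 and -0.37. IGFBP4, its protease and both inhibitors of the protease were therefore all lower in the CCA-1.1 library. The ratio of IGFBP4 to PAPPA was 3.05 with DMSO and 3.31 with CCA-1.1. HTRA1, a secreted serine protease that cuts binding proteins, differed by -0.39 (342.1 TPM and 260.1 TPM), and CCN2, a matrix-associated growth factor, by -0.33. HTRA1 and CCN2 are named after their values were seen. CCN5 was higher, at 22.5 TPM and 31.5 TPM, a difference of 0.47. The lysosomal protease CTSD was the most abundant gene of the list, at 1978 TPM and 2062 TPM, a difference of 0.06. The proteases ADAM28 (2.74 TPM and 3.47 TPM) and ADAM12 (8.9 TPM and 8.87 TPM) differed by 0.26 and -0.0044. Both are named after their values were seen.

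Of the genes downstream of the receptors, few differed by more than 0.32. Of the 7906 protein-coding genes averaging at least 10 TPM, 4.33% were above 0.32 and 3.62% were below -0.32. Their median was 0.0039, and that of the 12041 averaging at least 1 TPM was 0.017. None of the 15 receptor adaptors averaging at least 10 TPM differed by more than 0.32. The median of the 17 adaptors averaging at least 1 TPM was -0.018. Among these 17, the adaptor GRB14, named after its values were seen, differed most, by 0.69, from 2.6 TPM with DMSO to 4.82 TPM with CCA-1.1. The docking protein IRS1 was at 24.1 TPM with DMSO and 22.0 TPM with CCA-1.1, and IRS2 was at 21.2 TPM and 24.1 TPM. Among adaptors averaging at least 5 TPM, the outer values were SH2B3 at -0.26 and GRB2 at -0.22 on the lower side, and IRS2 and the scaffold protein RACK1, each at 0.17, on the higher side. Of the 25 genes of the PI3K, AKT and mTOR arm averaging at least 10 TPM, 1 was above 0.32 and none was below -0.32, with a median of -0.037. The median of all 29 was -0.058. INPPL1, a phosphatase of inositol lipids, was at 10.8 TPM and 14.7 TPM, a difference of 0.42. TSC1 differed by -0.20 and PIK3R2 by -0.14.

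AKT keeps FOXO factors out of the nucleus. These factors and their textbook targets had a median of 0.11 over the 13 genes averaging at least 1 TPM. The median of the 12041 protein-coding genes with that mean was 0.017. Of the 13, 11 were higher in the CCA-1.1 library, against 53.8% of the 12041. This count takes no account of size, and some of the 11 were close to no difference. FOXO activity was not tested. PDK4, which restrains pyruvate oxidation, was at 13.7 TPM with DMSO and 24.96 TPM with CCA-1.1, a difference of 0.82. It was the 1 gene of 8 above 10 TPM beyond 0.32, and 4.33% of the 7906 protein-coding genes lay above that limit. FOXO4 differed by 0.24. INSR and IRS2, which stand in this list as targets, are described above, and INSR, whose direction turned with the transcripts counted, was 1 of the 2 lower genes.

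Among regulators of the IGF2 transcript and locus, CTCF was at 23.5 TPM with DMSO and 15.7 TPM with CCA-1.1, a difference of -0.56. CTCF is an insulator protein of many genomic regions, among them that of IGF2 and H19. It was the 1 gene beyond 0.32 in either direction of 4 averaging at least 10 TPM. Of the 7906 protein-coding genes with that mean, 3.62% were below -0.32 and 4.33% were above 0.32. HMGA2 differed by 0.23, the IGF2 mRNA binding protein IGF2BP2 by 0.12 and PLAG1 by -0.13. The median of the 5 genes averaging at least 1 TPM was -0.090. Of the 9 genes above 10 TPM that sort mannose 6-phosphate cargo with IGF2R, SORT1 was the 1 beyond 0.32, at 55.5 TPM and 43.7 TPM, a difference of -0.34. NAGPA, which completes the mannose 6-phosphate tag, differed by -0.31, from 7.2 TPM to 5.6 TPM, and GGA2 and VPS35 each by 0.11. The median of all 10 genes of this list was -0.013, and IGF2R was at -0.02. Both lie near the median of 0.017 over the 12041 protein-coding genes averaging at least 1 TPM. The list of other ligands, receptors and binding proteins had 2 of 8 genes averaging at least 1 TPM, and a median of -0.0043.

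**Figure D3:**
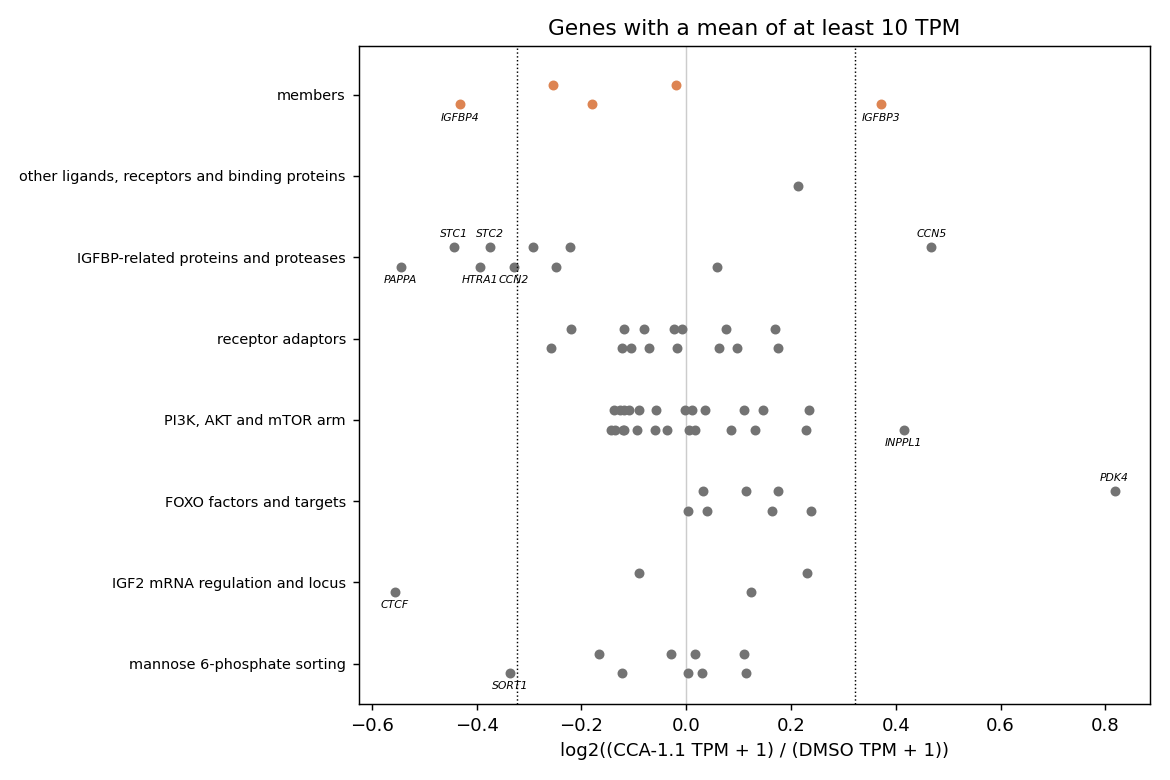
Difference between the libraries on the log2(TPM + 1) scale (x axis) for each gene averaging at least 10 TPM, by list (rows, with points shifted up and down for legibility), 1 library per condition; the 5 members with such a mean are the orange top row, and labelled points lie outside the dotted lines at -0.32 and 0.32. Of 10 genes in the row of IGFBP-related proteins and proteases, 5 lie on the lower side, among them PAPPA, STC1 and STC2, while no receptor adaptor lies outside the lines. Of the 7906 protein-coding genes with such a mean, 3.62% lie below and 4.33% above the lines.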

How the data were processed

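mRNA of U87 cells was sequenced by the authors on an Illumina instrument, with 1 DMSO library and 1 CCA-1.1 library at 72 h. Reads were checked with FastQC 0.11.9 and MultiQC 1.1, per the labels, and transcripts were quantified with Kallisto against GRCh38.p14. The deposited values are TPM with 2 decimals. The read depth is unknown. The strand setting is not given in the sources used here.

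From these values, 169966 of 177816 transcripts were matched to RefSeq symbols (GRCh38.p14), ignoring versions, and TPM was summed per gene. Differences used a pseudocount of 1 TPM, thresholds of 2-fold and of 0.32 on the log2 scale and, for the latter, a mean of at least 10 TPM. No test was possible. Pathway genes were named when among the 2 largest differences in each direction with a mean of at least 5 TPM, or fixed by name. An item under this rule is not reported here. Transcripts were named when averaging at least 5% of their gene, and the minor transcripts of IGF1R, IGFBP3 and IGFBP7 after their values were seen. Members and lists were chosen with earlier results of these data known. Alternatives were other pseudocounts, scaling, filters and transcript sets. The calculation was tested on simulated data with planted differences beyond 2-fold, in genes averaging at least 10 TPM. That simulation does not bear on differences near 0.32 or on genes near 0. Python 3.11.15, numpy 2.4.6, pandas 2.3.3 and matplotlib 3.10.9 were used.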

Additional observations from a re-analysis of the deposited data

How the results depend on the processing

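IGFBP3 stayed above 0.32 and IGFBP4 below -0.32 under every alternative run: pseudocounts of 0.1, 0.01 or none, median-ratio scaling, curated transcripts, versioned identifiers and the highest transcript alone. These alternatives could hardly move either gene. IGFBP4 has 1 transcript, and NM_000598.5 held 98.6% of IGFBP3 with DMSO and 99.2% with CCA-1.1. The scaling ratio was 1.003, and both genes lie far above every pseudocount. None of the alternatives bears on the spread between replicate libraries. No member with a mean of at least 10 TPM changed direction. Of 70 recomputed member differences, 11 moved by over 0.1, all in members below 10 TPM. IGF1R was at -0.58 with curated transcripts and 0.0031 with its highest transcript alone, and INSR at 0.020 and -0.74. With a pseudocount of 0.01, 1 member passed 2-fold (IGFBP2, listed at 0 in DMSO). Member transcripts past 2-fold numbered 7 with a pseudocount of 0.1, 9 with 0.01 and 0 with a minimum mean of 1 TPM, since NM_000208.4 lies below it. The short INSR form held 100% in DMSO over curated transcripts. The median of the list of proteases, inhibitors and secreted relatives was -0.055 without a minimum, where genes near 0 enter. With a minimum of 10 TPM, the IGF2 regulator list had a median of 0.017 and the list of other ligands, receptors and binding proteins 0.21, from 1 gene. No paired analysis was possible because each condition had a single library, and no library could be left out. Without read counts, no limit follows for values near 0.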

Other observations

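Some genes overlap the members on the genome. The model gene LOC124900898, which overlaps IGFBP7, was listed at 0 with DMSO and was at 4.67 TPM with CCA-1.1, while IGFBP7 was lower by 38.2 TPM. POLR2B, which also overlaps IGFBP7, was at 94.2 TPM and 93.3 TPM. LOC124901451, which overlaps IGF2R, was at 1.21 TPM with DMSO and 3.33 TPM with CCA-1.1. AIRN, the antisense RNA at IGF2R, and IGF2-AS were listed at 0 in both libraries, and IRAIN, at IGF1R, was at 0.01 TPM and 0.03 TPM. Whether reads were exchanged between these genes and the members was not tested.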
